A study of Mus musculus with 12 samples.

Results

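The 9 genes described here mark the T and B lymphocytes: Cd3e, Cd3d, Cd3g, Cd4, Cd8a, Cd8b1, Cd79a, Cd79b and Ms4a1. They were chosen by name, and every probe on the array that carries one of these names was taken, which gave 12 of the 55681 probes and 9 of the 34796 gene names. Aortas of male C57BL/6J mice aged 11 to 14 weeks were profiled on 1-colour Agilent arrays, with 3 samples, 1 array each, in each of 4 groups. Nothing in the labels says whether a sample is 1 animal. The DMSO group carries the treatment label DMSO, the vehicle, while its sample titles begin with Pre, a term the study uses for mice before the challenge, so whether this baseline received vehicle is not settled. The challenge and rapamycin-alone differences are against that baseline. As labelled, the rapamycin group received rapamycin, an inhibitor of the growth kinase mTOR, at 2 mg/kg/day. The BA+DMSO group received the vehicle during 3 days of challenge with β-aminopropionitrile (BAPN, 150 mg/kg/day), which blocks collagen crosslinking, and angiotensin II (AngII, 1 µg/kg/min), a pressor peptide. The BA+rapamycin group received the same challenge together with rapamycin. The samples are pieces of aorta with all their cell types, so a smaller number of lymphocytes and less RNA in each lymphocyte cannot be told apart in any value below.

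A T cell recognises antigen through a receptor whose signal is carried by the CD3 chains. Cd3e, Cd3d and Cd3g encode the epsilon, delta and gamma chains, which assemble in pairs of epsilon with delta and epsilon with gamma, so a T cell makes all of them together. Cd4 encodes the co-receptor for MHC class II, found on helper T cells and, in some species and states, on myeloid cells. Cd8a and Cd8b1 encode the alpha and beta chains of the co-receptor for MHC class I, found on cytotoxic T cells, and the alpha chain also occurs on some dendritic cells. Cd79a and Cd79b encode the paired signalling chains of the B cell receptor, and Ms4a1 encodes CD20, a surface protein of mature B cells. In the normal aorta lymphocytes are few and lie mostly in the adventitia and the surrounding fat.

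The probes decide what can be read, because 3 of the genes had more than 1 probe. Cd4 had a probe printed as 10 spots, which starts at base 1242 of the transcript, and a single-spot probe that starts at base 3035. The first lies at chr6:124817706-124817765 on the minus strand of the mm9 build and the second at chr6:124814711-124814770 on the same strand. The single-spot probe and those of Cd3e and of the brighter Cd79a probe hold AATAAA, the canonical signal for messenger polyadenylation, and their last 30 bases are shown with each copy in capitals. They are shown because the 2 genes that passed the test below were both read by such probes. The bases below are read from the array files, 5′ to 3′ along the transcript.
Cd4, single-spot probe, bases 31 to 60: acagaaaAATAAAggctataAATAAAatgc
Cd3e, bases 31 to 60: taatgcaaaaggcAATAAAgtgtattggct
Cd79a, brighter probe, bases 31 to 60: gtgatAATAAAtccttcccaaagcaaaaaa

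The Cd3e probe lies at chr9:44806828-44806887 on the minus strand and the brighter Cd79a probe at chr7:25686823-25686882 on the plus strand. AATAAA was searched on the transcript strand of the probe alone, and 3 of the 12 member probes hold it against 10.1% of the 55675 probes measured. The probes shown next carry no AATAAA. The Cd4 10-spot probe reads the same transcript as the single-spot probe, and the Cd3d probe joins 2 stretches of genome that together span 232 bases at chr9:44794171-44794402. The first of the 2 Cd8a probes is shown because it stayed at background on every array, and it lies at chr6:71323885-71323944.
Cd4, 10-spot probe: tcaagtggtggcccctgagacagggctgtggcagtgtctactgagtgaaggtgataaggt
Cd3d: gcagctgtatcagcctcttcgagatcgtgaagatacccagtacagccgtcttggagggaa
Cd8a, first probe: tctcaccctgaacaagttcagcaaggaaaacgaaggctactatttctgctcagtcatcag

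Values are the log2 of the processed signal minus the log2 of the array's 75th percentile. The arrays differed in that brightness. The 75th percentile was 256 ± 30.7 intensity units in the DMSO group and 289 ± 42.6 in the rapamycin group, against 152 ± 86.0 in the BA+DMSO group and 97.3 ± 19.6 in the BA+rapamycin group (SD, n = 3 each). The share of probes well above background ran from 41.2% to 53.1% over the 12 arrays. The arrays sat on 2 slides, with the 3 DMSO arrays and rapamycin replicate 1 on one and the other 8 on the other, so DMSO and BA+DMSO shared no slide. Replicates of a group correlated at r of 0.949 or more over all probes.

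The 9 genes differed in how often they were measurable. A probe entered the test where some group had all 3 of its arrays well above background, and 6 of the 9 genes had such a probe: Cd3e, Cd3d, Cd3g, Cd4, Cd79a and Cd79b. Cd3e, Cd4 and Cd79b were well above background on all 12 arrays. Cd8a and Cd8b1 were not well above background on any array, and Ms4a1 was so on 4 arrays of 12. DMSO arrays had 6 or 7 of the 9 genes above background and BA+rapamycin arrays had 3 or 4, where over all probes the group means were 50.4% ± 2.09 and 43.6% ± 2.10 (SD, n = 3). The rapamycin arrays had 3, 7 and 4 and the BA+DMSO arrays 7, 3 and 6, in the order of replicates 1 to 3, where the means over all probes were 51.8% ± 1.3 and 45.7% ± 4.35. The smallest signal well above background was 12.2 to 17.7 intensity units, and values under it are bounds that have no order.

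**Figure D1:**
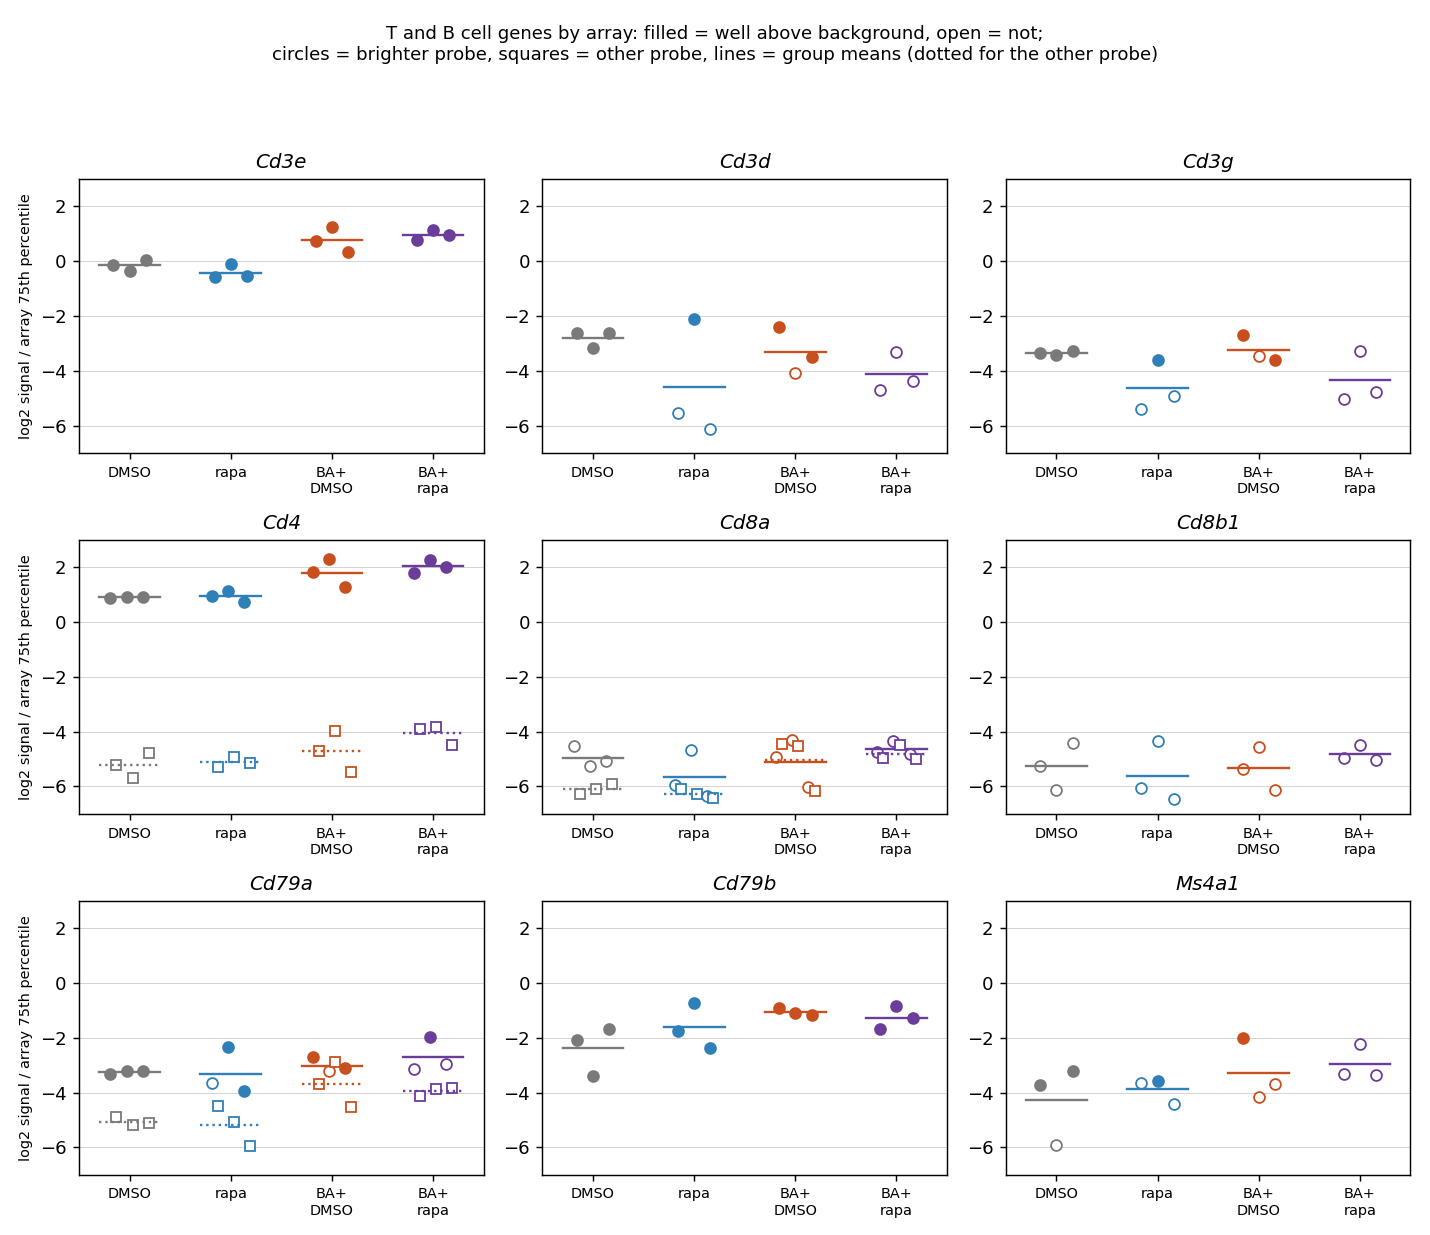
Level of each gene on each array, as log2 of the signal over the array's 75th percentile (vertical axis), in the 4 groups (horizontal axis, 3 arrays each). Filled points are well above background and open points are not, circles are the brighter probe and squares the other, and lines are group means. Cd3e and the brighter Cd4 probe are filled throughout, the other Cd4 probe and both Cd8 genes are open throughout, and Cd3d and Cd3g are filled on the same 6 arrays.

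Cd3e, the epsilon chain, was higher on challenged than on unchallenged arrays. On the log2 scale its level was −0.13, −0.36 and 0.05 on the DMSO arrays. It was 0.73, 1.25 and 0.34 on the BA+DMSO arrays. All 3 challenged values lay above all 3 DMSO values. The rapamycin arrays gave −0.58, −0.12 and −0.56 and the BA+rapamycin arrays 0.76, 1.12 and 0.95, again with no overlap. The group means were −0.15 ± 0.20, −0.42 ± 0.26, 0.77 ± 0.46 and 0.94 ± 0.18 for DMSO, rapamycin, BA+DMSO and BA+rapamycin (SD, n = 3). On these scaled values the challenge difference was 0.92 (1.89-fold, SE 0.24, limma adjusted p = 0.0235), and that of the challenge under rapamycin 1.36 (2.57-fold, SE 0.24, limma adjusted p = 0.00244). Without scaling the same differences were 0.02 and −0.22.

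Cd3d and Cd3g, the partners of the epsilon chain, passed the test in no contrast. The Cd3d level was −2.61, −3.18 and −2.62 on the DMSO arrays, all well above background. The rapamycin arrays gave −5.53, −2.12 and −6.14, and only the middle value was well above background. It was −2.39, −4.10 and −3.49 on the BA+DMSO arrays, where replicate 2 was at background. The BA+rapamycin arrays gave −4.70, −3.32 and −4.36, all at background. Before scaling, the Cd3d signal was 45.9, 29.4 and 36.1 intensity units on the DMSO arrays and 4.21, 7.48 and 5.24 on the BA+rapamycin arrays. BA+DMSO and DMSO overlapped on the log2 scale, and the challenge difference was −0.52 (95% interval −2.43 to 1.38, limma adjusted p = 0.701).

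Cd3g lay well above background on the same 6 arrays as Cd3d. Its level was −3.36, −3.41 and −3.27 on the DMSO arrays, a spread of 0.069 (SD). The rapamycin arrays gave −5.38, −3.62 and −4.92, each below every DMSO value, with replicates 1 and 3 at background. The BA+DMSO arrays gave −2.68, −3.46 and −3.62, on both sides of the DMSO values. The BA+rapamycin arrays gave −5.02, −3.27 and −4.76, all at background. The challenge difference for Cd3g was 0.09 (95% interval −1.02 to 1.21, limma adjusted p = 0.916). Under rapamycin alone it was −1.29 (95% interval −2.41 to −0.18), with an unadjusted p of 0.0268 and a limma adjusted p of 1 over all probes. 

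The 2 Cd4 probes differed. The single-spot probe read 0.87, 0.91 and 0.91 on the DMSO arrays and 0.94, 1.14 and 0.74 on the rapamycin arrays. It read 1.81, 2.29 and 1.26 on the BA+DMSO arrays and 1.80, 2.26 and 2.01 on the BA+rapamycin arrays, so challenged and unchallenged arrays did not overlap. By this probe, on scaled values, the challenge difference was 0.89 (1.85-fold, SE 0.25, limma adjusted p = 0.0278), and that of the challenge under rapamycin 1.08 (2.11-fold, SE 0.25, limma adjusted p = 0.00706). The 10-spot probe was not well above background in any of its 120 spots over the 12 arrays. Its mean signal was 6.92 ± 1.5 intensity units in the DMSO group and 5.2 ± 0.291 in the BA+DMSO group (SD, n = 3), where the single-spot probe read 476 ± 51.0 and 478 ± 104. The single-spot probe stands for Cd4 in the counts below, as the brighter of the pair. Which of the 2 probes reads Cd4 RNA cannot be settled from these files, so each Cd4 value and call here is that of the single-spot probe.

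The signals of Cd3e and of the brighter Cd4 probe before scaling bear on both calls. The Cd3e signal was 257, 208 and 229 intensity units on the DMSO arrays and 219, 186 and 312 on the BA+DMSO arrays, and these overlapped. It was 172, 250 and 230 on the rapamycin arrays and 184, 162 and 208 on the BA+rapamycin arrays, which overlapped too. Over the 12 arrays it ranged 1.92-fold and that of the brighter Cd4 probe 1.68-fold, against 4.52-fold for the 75th percentile that divides them. A range as narrow as that of Cd3e was rare: 2.53% of the tested probes had a smaller one, and the median tested probe ranged 6.85-fold. Without scaling, the challenge difference was 0.02 for Cd3e and −0.01 for Cd4, where the median over all tested probes was −0.95. For the challenge under rapamycin the sign turned without scaling, to −0.22 for Cd3e and −0.50 for Cd4, where the median was −1.67. With array brightness as a covariate it was 0.43 for Cd3e (limma adjusted p = 0.148) and 0.34 for Cd4 (limma adjusted p = 0.151), and under rapamycin 0.50 and 0.11. The scaled levels of the 2 probes correlated at r = 0.964 with each other and at −0.947 and −0.975 with log2 array brightness over the 12 arrays, which enters both sides. The part of brightness in these calls was not tested beyond those fits.

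**Figure D2:**
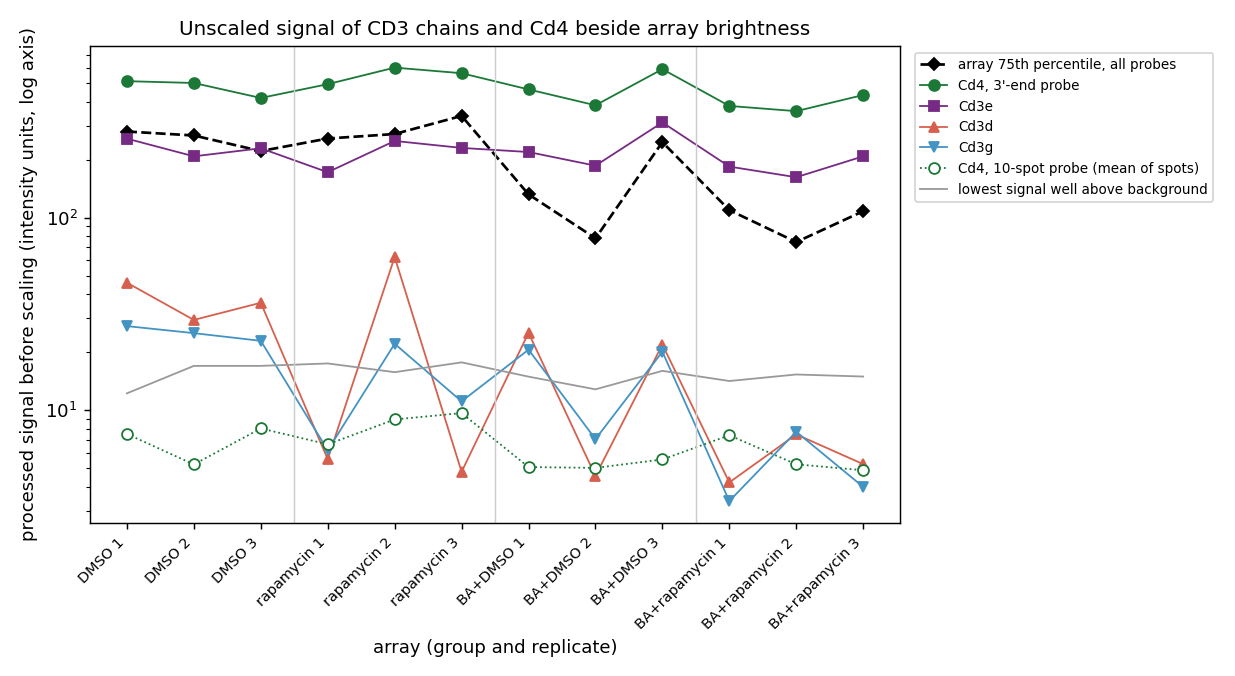
Processed signal before scaling, in intensity units on a log axis, for each array (horizontal axis, grouped by treatment). The Cd4 3′-end probe is the single-spot probe. The dashed line is the array's 75th percentile and the grey line the lowest signal well above background. The Cd3e and brighter Cd4 signals stay within 1.92-fold and 1.68-fold while the 75th percentile falls in most challenged arrays, and Cd3d and Cd3g move together across the grey line.

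Cd8a and Cd8b1, the cytotoxic co-receptor chains, stayed at background and were not tested. The first Cd8a probe read between 3.33 and 6.08 intensity units over the 12 arrays. The other, printed as 10 spots at chr6:71328911-71328970, had 2 of its 120 spots well above background, both in DMSO replicate 1. Its array values lay between 3.68 and 12.1 intensity units. Cd8b1 (chr6:71287231-71287290) read 3.23 to 13.5 over the 12 arrays. All of these array values lay under the smallest signal well above background on their array, so the Cd8 genes give no level and no difference here.

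The B cell receptor chains were measurable, with wide spread between arrays. Cd79b (chr11:106172780-106172839) was well above background on every array, at −2.08, −3.41 and −1.68 on the DMSO arrays and −0.93, −1.11 and −1.16 on the BA+DMSO arrays. All 3 challenged values were higher than the 3 DMSO values, by 1.33 on average (95% interval 0.29 to 2.36). Without DMSO replicate 2 the difference was 0.81. Without scaling it was 0.42, and the signals of 66.4, 25 and 69.1 intensity units on the DMSO arrays and 69.3, 36.2 and 111 on the BA+DMSO arrays overlapped. The limma adjusted p of the scaled difference of 1.33 over all arrays was 0.0683 and did not pass 0.05. The rapamycin arrays gave −1.77, −0.74 and −2.37 and the BA+rapamycin arrays −1.68, −0.86 and −1.27, which overlapped (difference 0.35, limma adjusted p = 0.559). On the scaled log2 values DMSO replicate 2 was the lowest of the 12 arrays for Cd79b.

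Cd79a, the partner of Cd79b, did not pass the test in any contrast. By its brighter probe it read −3.32, −3.22 and −3.20 on the DMSO arrays and −2.71, −3.23 and −3.11 on the BA+DMSO arrays. The rapamycin arrays gave −3.66, −2.35 and −3.96 and the BA+rapamycin arrays −3.16, −1.96 and −2.95. Of these 12 arrays 8 were well above background, and the groups overlapped. The challenge difference was 0.23 (95% interval −0.66 to 1.12, limma adjusted p = 0.723). The other Cd79a probe, which joins 2 stretches of genome within chr7:25684357-25684614, was at background on all 12 arrays.

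Ms4a1 (chr19:11325367-11325426) was well above background in DMSO replicates 1 and 3, rapamycin replicate 2 and BA+DMSO replicate 1. Before scaling these read 21.4, 23.5, 22.7 and 32.8 intensity units. DMSO replicate 2 and BA+DMSO replicate 2 read 4.37 and 4.32. No group had all 3 arrays above background, so Ms4a1 was not tested. For Cd3d, Cd3g and Ms4a1 against BA+rapamycin, where none of the 3 arrays was above background, the measured group did not exceed the bound set by the smallest detectable signal, and no fold is given.

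Across the 6 tested genes, the challenge called 2, Cd3e and Cd4, both higher. Over all 27801 tested probes the same contrast called 5697, which is 20.5%, with 9.65% higher and 10.8% lower. The median difference of the 6 genes was 0.56, against −0.04 over all tested probes. At an unadjusted p under 0.05 the count was 3, with Cd79b added. Neither B cell gene passed the adjusted test. Cd79b did with normexp background correction (0.77, limma adjusted p = 0.0483) and with slide as a random block (1.37, limma adjusted p = 0.0127). The slide block had an estimated correlation of −0.133, and that fit called 10270 of the 27801 probes. With slide as a fixed block none of the 6 genes was called: the difference was 0.68 for Cd3e (adjusted p = 0.618) and 0.89 for Cd4 (adjusted p = 0.529), and 15 of the 27801 probes were called. No slide held both groups of this contrast.

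The count of 2 changed in fits that left out 1 array and so had a smaller group. The calls over all probes in those fits are not given here, and the part of group size was not tested. The count is given by the array left out. This count fell to 0 without DMSO replicate 1, without DMSO replicate 2 or without BA+DMSO replicate 1. Without DMSO replicate 3 it fell to 1, when Cd3e kept its call. The differences themselves stayed between 0.68 and 1.14 for Cd3e and between 0.64 and 1.16 for Cd4 over the 12 fits that each left out 1 array. BA+DMSO replicate 3 was the brightest challenged array, with a 75th percentile of 246 intensity units, and had the lowest Cd3e and Cd4 values of its group.

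The challenge under rapamycin called the same 2 genes of 6, both higher, against 41.7% of all tested probes, 18.9% higher and 22.9% lower. The 6 genes had a median difference of 0.55, against −0.08 over all tested probes. Cd3d and Cd3g enter that median at background on all 3 BA+rapamycin arrays, so its size is not read. Without scaling all 6 differences were below 0, from −0.22 for Cd3e to −1.29 for Cd3g. Within the slide that held both groups the differences were 1.28 for Cd3e and 1.08 for Cd4 over 2 rapamycin and 3 BA+rapamycin arrays. A fit of the 8 arrays of that slide alone called 1 of the 4 genes it tested, and 3120 of 28247 probes. Without rapamycin replicate 2 the count was 4, with Cd3d and Cd79a added, but no Cd3d value of either group is then well above background, so that call rests on background signals divided by array brightness. This contrast and the previous one share no array.

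Rapamycin in the challenged aorta called 0 of the 6 tested genes by limma, and at an unadjusted p under 0.05 the count was also 0. Over all probes 0.281% were called in that contrast. With array weights 7094 of the 27801 probes were called, and still 0 of the 6 genes. The differences were 0.17 for Cd3e (95% interval −0.37 to 0.70), 0.23 for Cd4 (−0.31 to 0.77) and −0.21 for Cd79b (−1.24 to 0.83). Cd3d (adjusted p = 0.562) and Cd3g (adjusted p = 0.253) were at background on all 3 BA+rapamycin arrays, so the size of their difference is not given. Both groups lay on 1 slide. This contrast shares the BA+DMSO arrays with the challenge contrast.

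In unchallenged mice rapamycin called none of the 6 genes either, and 0.0036% of all probes, which is 1 probe. With array weights 535 of the 27801 probes were called. At an unadjusted p under 0.05 the count was 1, Cd3g. Cd3d had −1.80 (95% interval −3.71 to 0.11, adjusted p = 1), and rapamycin replicates 1 and 3 were at background for both chains while replicate 2 was not. The sizes of the Cd3d and Cd3g differences in this contrast therefore rest partly on values at background. Before scaling, rapamycin replicate 2 was the highest of the 12 arrays for Cd3d, Cd79a and Cd79b. The arrays of this contrast had like brightness, with 75th percentiles of 221.5 to 337 intensity units. The interaction, the test of whether rapamycin acted differently with and without the challenge, called 0 of the 6 genes and 0% of all probes. Of the 6 genes 0 had an unadjusted p under 0.05. With array weights the interaction called 929 of the 27801 probes.

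**Figure D3:**
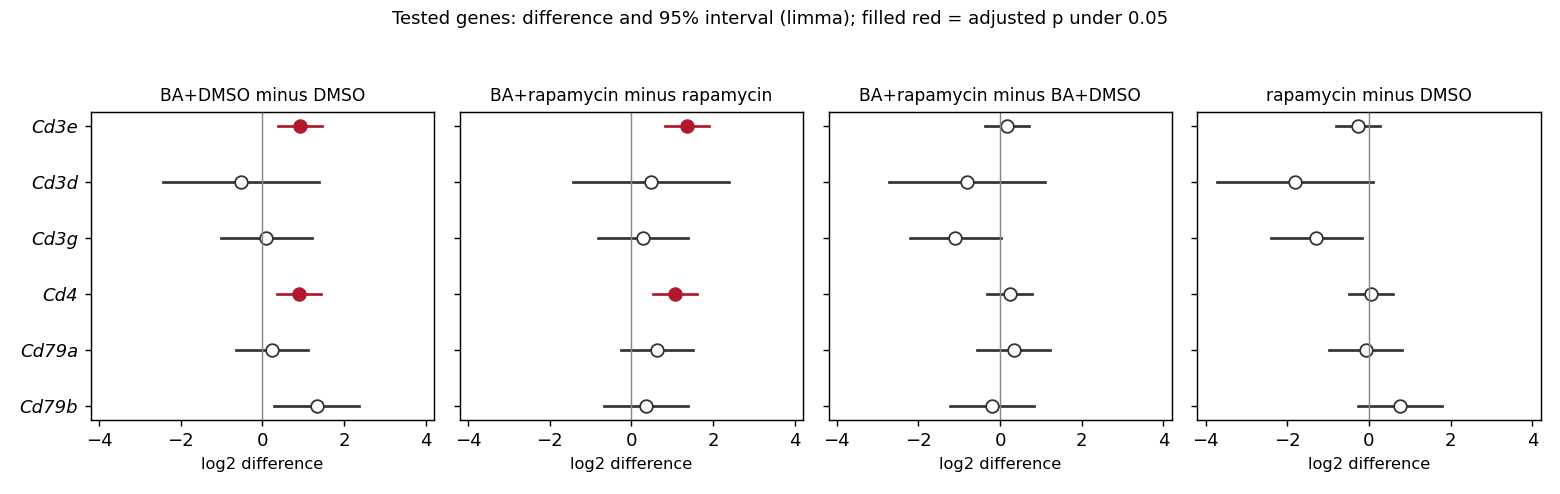
Log2 difference with its 95% interval for the 6 tested genes (vertical axis) in 4 comparisons, from 1 limma model over 12 arrays with 3 in each group. Filled red points passed an adjusted p of 0.05. Cd3e and Cd4 passed in both comparisons of challenged with unchallenged mice, though not without scaling, and no gene passed in either rapamycin comparison. Against BA+rapamycin the Cd3d and Cd3g points rest on values at background, and for rapamycin alone they do so in part.

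The share of other T cell genes called higher by the challenge was near that of all probes. Of 26 listed genes of T cell receptor signalling and identity on the array, 13 were tested and 1 was called higher, beside 9.65% of all tested probes. This was Cd2, an adhesion receptor shared with NK cells and some myeloid cells, at 2.09 (SE 0.38, adjusted p = 0.00429). None was called lower, and the median difference was 0.09, with 8 of the 13 differences above 0. Single arrays moved that median, to −0.10 without BA+DMSO replicate 2 and to 0.68 without BA+DMSO replicate 3. The kinases that act just below the receptor did not pass: Lck had −0.35 (adjusted p = 0.695) and Zap70 0.38 (adjusted p = 0.508). Cd247, the zeta chain of the same receptor, had 0.60 (adjusted p = 0.453). Other genes of the list that did not pass, named after their values were seen, moved further in both directions. Ccr7 had 1.64 (adjusted p = 0.0614) and Rasgrp1 0.91 (adjusted p = 0.162). Cd5 had −0.79 (adjusted p = 0.0877) and Cd28 −0.72 (adjusted p = 0.0949). These were above background on 7, 9, 8 and 10 of the 12 arrays. Of the 26 genes, 8 were above background on no array: Bcl11b, Cd27, Il7r, Tcrb-J, Themis, Trat1, Txk and Ubash3a. The number above background was 12 to 16 on the DMSO arrays, 9 to 15 on rapamycin, 9 to 15 on BA+DMSO and 4 to 10 on BA+rapamycin arrays.

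Genes of T cell subsets and effector function gave 1 call in each direction among 8 tested of 25. Gzmk, a granzyme, had 0.97 (adjusted p = 0.0229) and Il2rb, an interleukin receptor chain of T and NK cells, was at background on all 3 BA+DMSO arrays and at least 1.92-fold lower there than on the DMSO arrays (adjusted p = 0.0301). The median was 0.21. Foxp3, Ctla4, Ifng and Il17a, which define regulatory cells or effector cytokines, were among 12 of the 25 that no array measured above background. Of 9 NK cell genes 7 were above background on no array, and the 1 tested gene, Cd244, had 0.41 (adjusted p = 0.564). Its difference was −0.18 without BA+DMSO replicate 2 and 1.05, called higher, without BA+DMSO replicate 3. With array brightness as a covariate Cd244 was called lower, at −0.79. For thymocyte genes 2 of 5 were tested and none passed, with a median of −0.10.

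Genes of B cell receptor signalling and identity gave more calls, 6 higher and 2 lower among 14 tested, with a median of 0.89. The largest were Cd72 at 2.69 (SE 0.24, adjusted p = 0.000144), an inhibitory receptor, Blnk at 2.26 (SE 0.27, adjusted p = 0.000641), the adaptor below the receptor, and Btk at 2.14 (SE 0.35, adjusted p = 0.00253), a kinase of the same pathway. The 2 lower genes were Ebf1 at −1.35 (adjusted p = 0.00741), a transcription factor also found in mesenchymal cells and fat, and Tnfrsf13c, the BAFF receptor (adjusted p = 0.0288), which was at background on all 3 BA+DMSO arrays and did not exceed the bound on DMSO arrays, so no fold is given. As background, Cd72, Blnk and Btk are also expressed by macrophages. Other genes of the list that did not pass, named after their values were seen, include Pax5, the defining transcription factor of the lineage, which had −0.43 (adjusted p = 0.709), Cd22 at 0.92 (adjusted p = 0.268) and Bank1 at 0.86 (adjusted p = 0.101). Blk, Cd180, Cxcr5, Fcrla and Spib were above background on no array. Plasma cell genes gave 1 call among 4 tested, Tnfrsf13b at 1.76 (adjusted p = 0.013), with a median of 0.42.

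The pan-leukocyte, macrophage and MHC class II lists had most of their tested genes called higher. All 10 pan-leukocyte genes passed the challenge test, led by Cd52 at 3.04, Cd53 at 2.95 (above background on 1 DMSO and 2 BA+DMSO arrays) and Coro1a at 2.67, with a median of 2.47. Of 14 macrophage and monocyte genes 12 were called higher and none lower, led by Ccr2 at 3.04 (above background on 1 of 3 DMSO arrays), Cd68 at 2.63 and C1qb at 2.55, with a median of 2.27. The list of MHC class II genes, which encode the ligands of CD4, with their chaperones and regulator, gave 6 of 7 higher with a median of 1.51, led by H2-DMa, a peptide-exchange chaperone, at 1.69. The list of MHC class I genes, which encode the ligands of CD8, with the peptide supply and loading genes, gave 3 of 9 higher with a median of 0.28, led by Psmb8, a proteasome subunit, at 1.15. The summed level of the 10 pan-leukocyte genes, in units of the array's 75th percentile, was 9.22 to 10.5 on DMSO arrays and 40.0 to 70.7 on BA+DMSO arrays. That of the 13 T cell genes was 2.06 to 2.79 and 1.81 to 3.75, which overlapped.

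**Figure D4:**
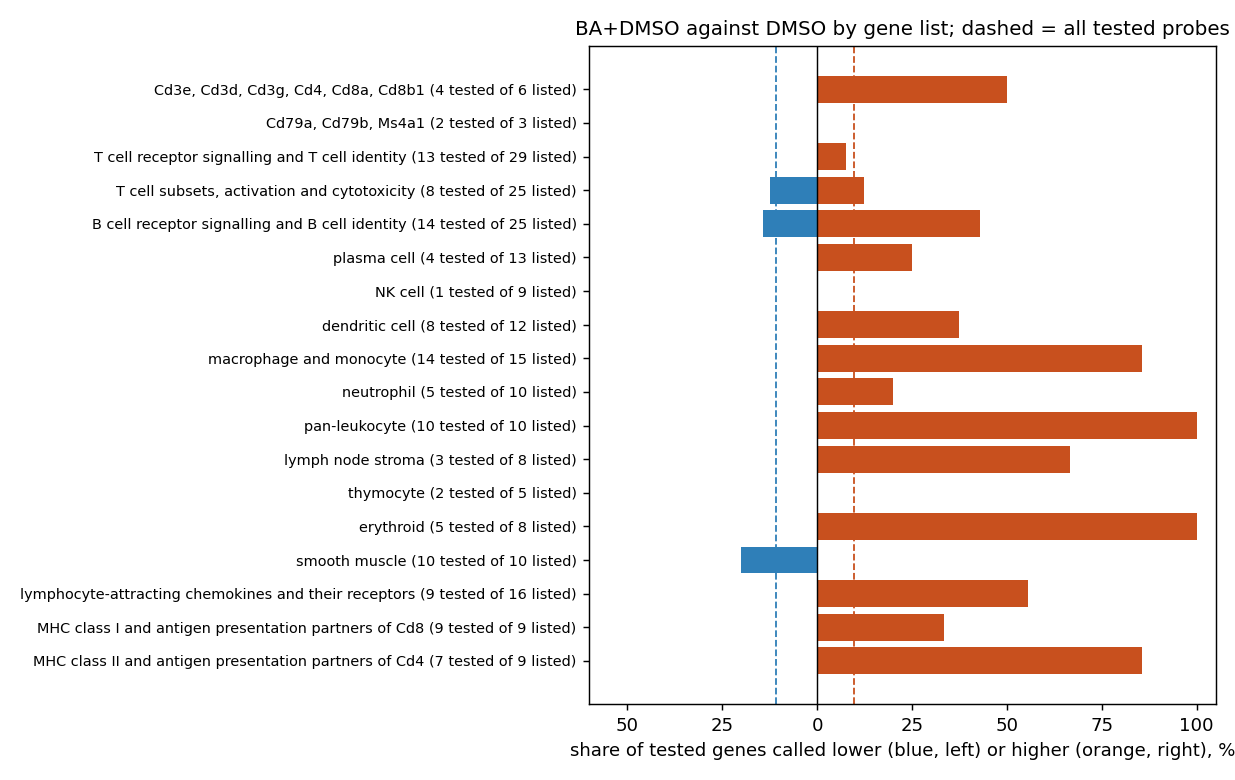
Share of the tested genes of each list that were called higher (orange, right) or lower (blue, left) in BA+DMSO against DMSO, in percent. Dashed lines are the shares over all tested probes, 9.65% higher and 10.8% lower. The pan-leukocyte, macrophage and MHC class II lists extend far to the right, and the list of T cell receptor signalling and identity has a share of higher calls near its dashed line and no lower call.

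Chemokines that attract lymphocytes, with their receptors, gave 5 of 9 higher and a median of 1.37. Among them were Ccl5 at 1.98, a chemokine made by T cells and other leukocytes, and Ccl19 at 1.5, a ligand of Ccr7. Dendritic cell genes gave 3 of 8 higher with a median of 0.58. These included Cd209a, a lectin receptor (limma adjusted p = 0.00374). It was at background on all 3 DMSO arrays and above background on only 2 BA+DMSO arrays, so no fold is given. Neutrophil genes gave 1 of 5, Ly6g at 1.87, with a median of 1.64. Lymph node stroma genes gave 2 of 3, Pdpn at 1.95 and Ccl19, with a median of 1.5. Smooth muscle genes gave 2 lower of 10, Synpo2 at −2.58 and Lmod1 at −1.91, with a median of −0.65.

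Erythroid genes, which mark blood in the tissue, moved with the challenge on scaled values. All 5 tested erythroid genes were called higher after the challenge, led by Alas2 at 2.45 and Hbb-b1 at 2.03, with a median of 2.02, and their summed level was 18.2 to 84.5 on DMSO arrays, 80.9 to 187 on rapamycin arrays, 115 to 235 on BA+DMSO arrays and 310 to 351 on BA+rapamycin arrays. Blood also carries lymphocytes, and the part of blood in the lymphocyte values was not tested. Under rapamycin the challenge called 18.9% of all tested probes higher and 22.9% lower. That contrast called 3 higher and 2 lower of the 13 T cell genes and 7 higher and 2 lower of the 14 B cell genes. It called 9 higher of the 10 pan-leukocyte genes and 8 higher and 1 lower of the 14 macrophage genes. The MHC class II list gave 1 higher of 7, and the class I list 1 higher and 2 lower of 9. Over the fits without 1 array the higher calls ran from 1 to 4 for the T cell genes and from 5 to 7 for the B cell genes. They ran from 9 to 10 for the pan-leukocyte and from 6 to 10 for the macrophage genes, and the class I lower calls from 1 to 4. In the rapamycin comparison of challenged mice none of the tested genes of any of these lists passed. The MHC class I list had a median of −0.67 there, with 0 of its 9 differences above 0. Over the fits without 1 array it had 0 to 6 lower calls, and the smooth muscle list 0 to 3 higher calls. No other list had more than 2 calls in either direction in those fits.

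The list counts for the challenge depended on the scaling, the fit and single arrays. Without scaling between arrays, 7114 of 27801 probes were called, and the median over all tested probes was −0.95. Of 10 pan-leukocyte genes 6 were then called higher (median 1.57), and of 14 macrophage genes 2 higher and 1 lower. Of 14 B cell genes 1 was called higher and 2 lower, and of 13 T cell genes 2 lower (median −0.81). In that fit the T cell subset list gave 2 lower of 8, the chemokine list 2 higher of 9, the dendritic list 1 higher of 8, the thymocyte list 1 lower of 2 and the smooth muscle list 8 lower of 10. The MHC class I and II, plasma cell, neutrophil, lymph node stroma and erythroid lists then gave 0 calls, and the class I median was −0.62. With only the groups compared, 1386 of 26370 probes were called. The higher calls were then 6 of 9 pan-leukocyte genes, 6 of 13 macrophage genes, 3 of 7 MHC class II genes and 1 of 5 erythroid genes. In the class I, T cell subset, plasma cell and neutrophil lists they were 0. With array brightness as a covariate 5086 of 27801 probes were called. The T cell list then gave 1 higher and 2 lower with a median of −0.54, and the B cell median was 0.27. The class I list gave 6 higher, the erythroid list 3, and 8 of 10 pan-leukocyte and 12 of 14 macrophage genes were called higher. Smooth muscle had 8 lower calls with array weights and 4 with quantile normalization. Over all probes those fits called 12803 and 5474 of 27801, against 5697 in the fit reported above. The T cell subset list had 0 calls with no filter on probes, where 4257 of 55675 probes were called. It had 0 higher and 1 lower with the brightness covariate. With slide as a fixed block 15 of 27801 probes were called and no list had a call. The medians were 2.41 for the pan-leukocyte genes and −0.02 for the T cell genes.

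Over the 12 fits that each left out 1 array, the higher calls ran from 8 to 10 for the pan-leukocyte genes, from 8 to 13 for the macrophage genes, with 8 without DMSO replicate 2, and from 4 to 6 for MHC class II. The erythroid count fell to 1 without DMSO replicate 2 or without BA+DMSO replicate 1, and to 3 without DMSO replicate 1. The chemokine count fell to 3 without DMSO replicate 1, DMSO replicate 2 or BA+DMSO replicate 1. The class I count fell to 0 without DMSO replicate 2 and to 1 without rapamycin replicate 1, BA+DMSO replicate 1 or either of the other DMSO arrays. Without BA+DMSO replicate 3 the higher calls were 3 of the T cell genes, 3 of the T cell subset genes and 5 of the dendritic genes. Without BA+DMSO replicate 2 there were 6 lower calls of smooth muscle genes. The T cell subset list had no call without BA+DMSO replicate 1, DMSO replicate 2 or DMSO replicate 3, and the plasma cell and neutrophil lists none without DMSO replicate 2 or DMSO replicate 3. Without BA+DMSO replicate 1, and without each of the DMSO arrays in turn, the B cell list gave 5 higher and 1 lower and the lymph node stroma list 1 higher.

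The genes most like Cd3e over the 12 arrays were not lymphocyte genes. Among tested probes the highest Pearson r were 0.988 for B4galt7, a sugar transferase, 0.986 for Khsrp, an RNA-binding protein, and 0.986 for 1700008J07Rik. The other two of the closest 5 were probes without a gene symbol, at 0.986 and 0.985. The unscaled signals of the 5 ranged 1.48-fold to 2.31-fold over the 12 arrays, near the 1.92-fold of Cd3e. For Cd79a the closest were Fam126a at 0.856 and Ltb, a lymphotoxin subunit made by lymphocytes, at 0.8. They were followed by a probe without a gene symbol at 0.784, 3300002P13Rik at 0.773 and Fam165b at 0.768. For Cd79b a probe without a gene symbol at 0.87 was closest, and Bank1, of the B cell list above, followed at 0.859. The single-spot Cd4 probe was closest to Odz4, at 0.995, whose unscaled signal ranged 1.71-fold. All of these are descriptions over 12 arrays that share slides, brightness and treatment.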

How the data were processed

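Total RNA of 12 samples of mouse aorta was labelled with Cy3 and hybridised to 1-colour Agilent arrays by the authors. Per the file headers, Feature Extraction 10.7.1.1 made the intensity values: the deposited processed signal (background-subtracted intensity), mean and background signals, and flags (other columns) for outlier spots and for spots well above background. The deposited table of normalized intensity matched quantile-normalized processed signals at r = 0.99994 on each array, so its scale is linear, it is not centred, and it served as an alternative. Probe positions are on mm9 (NCBI37), per the files.

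Outlier-flagged spots were dropped (104 to 132 of 62976 on each array), control spots (3671) were left out, spots of a probe were averaged, and each array was scaled to its 75th percentile. 6 of 55681 probes had no value. A probe counted as well above background where at least 0.5 of its spots were flagged so. The 27801 tested probes were fitted with limma 3.58.1 in R 4.3.3, in 1 model over the 4 groups, with Benjamini-Hochberg adjustment in each contrast and calls at 0.05. The fit had 8 residual and 3.02 prior degrees of freedom, and was tested on simulated data. The number of arrays limits the precision, and p-values measure only the spread between these samples.

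The member genes and lists were chosen with earlier results of these data known. A gene stands in counts by its probe with the highest mean level. Named genes of the other lists are at most the 3 called genes with the largest change, with others named after their values were seen, and 1 gene that the rule names is not reported here. Of 222 list entries 206 matched by name, 5 by accession and 11 not. Alternatives were other scalings, background correction, filters, blocks, weights, covariates, the study's rule (p under 0.01 and fold above 4 or below 0.25) and each array left out. 2 were added after seeing the data: no scaling, and the arrays of 1 slide alone.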

Additional observations from a re-analysis of the deposited data

How the results depend on the processing

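The count of 2 genes called by the challenge fell to 0 with no filter, with only the groups compared, with slide as a fixed block, with the brightness covariate, with no scaling between arrays and under the study's rule, and ran from 0 to 2 over the fits without 1 array. It rose to 3, with Cd79b, with normexp and with slide as a random block. Over all probes the challenge called 5697 of 27801 in the fit reported above. It called 4257 of 55675 with no filter and 1386 of 26370 with only the groups compared. Of 27801 probes it called 5086 with the brightness covariate, 7114 with no scaling and 6577 with normexp. With slide it called 15 as a fixed block and 10270 as a random block. The count of 2 for the challenge under rapamycin was 5 with normexp, 0 with the brightness covariate and 1 on the arrays of slide 2 alone. It was 0 under the study's rule, and ran from 2 to 4 without 1 array. In that contrast 11602 of 27801 probes were called in the fit reported above, 17357 with normexp and 1786 with the brightness covariate. On slide 2 alone 3120 of 28247 probes were called. With no scaling, every tested gene had a difference below 0 in that contrast, from −0.22 for Cd3e to −1.29 for Cd3g. Cd3e and Cd4 were thus not called higher in that fit, and any gene called there was called lower. In the other contrasts the count was 0 in each fit run. Dates, and for some samples a date with the number after it, recur in titles of different groups. What they share is not stated, and only the date was fitted. With title date as a random replicate block (correlation 0.496) the counts were 2 and 2 as before, while all-probe calls for rapamycin under challenge went from 78 to 458.

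Of 791 refitted differences 702 kept direction and call and 63 turned sign. Of those that kept direction 19 lost the call and 7 gained one. A turned sign was counted only as such, with or without a call. Among the turned signs of Cd79b in the challenge under rapamycin the lowest limma adjusted p was 0.0421. Cd3d and Cd3g differences against BA+rapamycin rest on values at background. Turned signs follow by contrast, and the cause was not tested. Challenge: with normexp Cd3d 0.32, with array weights Cd3d 0.26, with quantile normalization and with the deposited matrix Cd3g −0.16 and Cd79a −0.03, with slide as a fixed block Cd3g −1.02 and Cd79a −0.27, with the brightness covariate Cd3g −0.33 and Cd79a −0.04, and with no scaling Cd3g −0.81, Cd4 −0.01 and Cd79a −0.67. Rapamycin under challenge: with normexp Cd3d 0.15, Cd3g 0.11 and Cd79b 0.04, with array weights Cd79a −0.05, with the brightness covariate Cd3e −0.11 and Cd4 −0.08, and with no scaling Cd3e −0.34, Cd4 −0.28 and Cd79a −0.18. Rapamycin alone: with no scaling Cd79a 0.09. Challenge under rapamycin: with quantile normalization Cd3d −0.45 and Cd3g −0.58, with the deposited matrix Cd3d −0.46 and Cd3g −0.61, with slide as a fixed block Cd3g −0.08, with the brightness covariate Cd3g −0.45 and Cd79b −0.26, and with no scaling Cd3e −0.22, Cd3d −1.11, Cd3g −1.29, Cd4 −0.50, Cd79a −0.95 and Cd79b −1.23. Interaction: with array weights Cd3d 0, Cd3g −0.40 and Cd79a −0.01, with quantile normalization Cd3g −0.43, with the deposited matrix Cd3g −0.45, with the replicate block Cd3g −0.26, with the brightness covariate Cd3g −0.12 and Cd4 −0.23, and with no scaling Cd3e −0.24, Cd3g −0.48, Cd4 −0.49 and Cd79a −0.27.

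Over the fits without 1 array, signs turned within these ranges. Challenge: Cd3g −0.19 to 0.28. Rapamycin under challenge: Cd3e −0.05 to 0.41, Cd4 −0.03 to 0.49, Cd79a −0.04 to 0.56 and Cd79b −0.41 to 0. Rapamycin alone: Cd4 −0.06 to 0.15 and Cd79a −0.57 to 0.24. Challenge under rapamycin: Cd3d −0.30 to 1.71, Cd3g −0.25 to 0.80 and Cd79b −0.02 to 0.80. Interaction: Cd3g −0.34 to 0.71 and Cd4 −0.08 to 0.44. Signal over background limits Cd3d, Cd3g and Cd79a, which were at background on 4 to 6 arrays, and Cd8a, Cd8b1 and Ms4a1, which could not be tested.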
